A study of Rattus norvegicus with 6 samples.

Results

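DNA replication genes are described here in renal cortex, the outer layer of the kidney, of male Sprague-Dawley (Crl:CD(SD)) rats. The 35 genes were chosen by name for their function, covering origin licensing, the replicative helicase, polymerases, the sliding clamp, nucleotide supply and their regulation. They were found among 45433 genes on a 1-colour Agilent array by the accession of each probe. A probe was matched for 32 of the 35, and 30 of the 30229 genes tested were replication genes. Mcm5 and Chaf1a had no matched probe, and neither had Uhrf1. Orc1 and Pole2 had a probe that stayed below the detection filter.

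The study compared rats given monuron, a phenylurea herbicide, at 200 mg/kg/day for 4 weeks with rats given corn oil, its vehicle, for the same 4 weeks. The animals were bought at 5 weeks of age and gave 3 arrays per group, which the study's design describes as biological replicates. Only 1 dose and 1 time were studied. The 3 monuron arrays were on one slide and the 3 corn oil arrays on another, so that slide and treatment cannot be told apart.

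Before a cell divides, the origin recognition complex, Cdc6 and Cdt1 load the ring-shaped MCM helicase onto DNA. Cdc45 and the GINS complex then switch the helicase on, and polymerases copy both strands behind it, with PCNA holding them to the template. Ribonucleotide reductase and thymidylate synthesis supply the building blocks, and E2F transcription factors, held back by the RB family in resting cells, switch on many of these genes as cells enter S phase. Most tubule cells of the adult kidney are at rest, and tubule cells re-enter the cell cycle after injury.

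E2F factors bind variants of TTTNGCGC, and NFY binds CCAAT. Promoter sequence from RefSeq (build GRCr8) was available for 30 of the 35 genes, and not for Mcm4, Cdc6, Rrm2, E2f1 and Orc1. Below are the 150 bases before the annotated start of genes whose transcripts are followed in the results, given 5′ to 3′ on the gene's strand, to show the letters these genes share. Capitals mark the E2F letters, TTTNGCGC or GGCGGGAA on either strand, in the first 5 sequences. The last letter of the GGCGGGAA match of Mcm3 is the start base itself, just outside the stretch. Capitals in Cdc45 mark CCAAT or its reverse, ATTGG. The stretches are chr13:42404353-42404502 on the minus strand for Mcm6, chr9:30733747-30733896 on the minus strand for Mcm3 and chr4:122918095-122918244 on the minus strand for Mcm2. They are chr3:160184770-160184919 on the plus strand for Gins1, chr9:120776084-120776233 on the minus strand for Tyms and chr11:95690028-95690177 on the plus strand for Cdc45.
Mcm6: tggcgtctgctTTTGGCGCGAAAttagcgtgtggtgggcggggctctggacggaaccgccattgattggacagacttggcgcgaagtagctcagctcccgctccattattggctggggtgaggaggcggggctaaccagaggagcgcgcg
Mcm3: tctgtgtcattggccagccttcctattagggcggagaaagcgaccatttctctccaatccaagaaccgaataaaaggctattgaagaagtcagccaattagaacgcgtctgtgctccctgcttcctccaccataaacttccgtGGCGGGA
Mcm2: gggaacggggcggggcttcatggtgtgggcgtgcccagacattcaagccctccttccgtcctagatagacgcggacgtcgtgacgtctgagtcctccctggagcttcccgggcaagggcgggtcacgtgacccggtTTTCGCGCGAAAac
Gins1: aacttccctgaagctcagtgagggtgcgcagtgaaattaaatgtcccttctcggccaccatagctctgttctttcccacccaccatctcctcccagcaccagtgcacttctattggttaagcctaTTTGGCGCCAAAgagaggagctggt
Tyms: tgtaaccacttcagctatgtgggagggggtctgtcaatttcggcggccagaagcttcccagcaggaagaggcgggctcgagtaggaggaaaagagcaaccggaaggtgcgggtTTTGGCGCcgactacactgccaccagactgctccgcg
Cdc45: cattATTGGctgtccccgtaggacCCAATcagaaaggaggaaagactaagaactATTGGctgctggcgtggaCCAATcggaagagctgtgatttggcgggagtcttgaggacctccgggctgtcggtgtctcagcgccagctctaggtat

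TTTNGCGC was found in the promoters of 13 of 30 replication genes (43.3%), against 430 of 33469 promoters in the whole table (1.28%), in windows from 250 bases before to 50 bases after the start. GGCGGGAA was found in 5 of 30 (16.7%, against 1.91% of all promoters), and either of the 2 in 17 of 30 (56.7%, against 3.14%). CCAAT was found in 18 of 30 (60%, against 37.5%) and TTTGAA, the CHR element of mitotic gene promoters, in 3 of 30 (10%, against 18.3%). Both strands were searched and base composition was not matched. In Mcm6, Mcm2 and Gins1 the TTTNGCGC matches on the 2 strands overlap by 4 bases and form a single longer run. The 14 tested genes with E2F letters had a median log2 fold change of 0.16, from -0.09 to 1.04, and 2 were called. The value of 1.04 is that of Cdt1, which was above background on 0 of 3 corn oil arrays, so its size is not well measured. The 12 tested genes without them had a median of 0.46, from -0.08 to 0.75, and 1 was called. Mcm10, Gins2, Gins3 and Orc6 in this set, and Cdt1 and Pole in the other, were above background on every monuron array but not on every corn oil array. They passed the detection filter through the monuron group alone, which raises the medians by selection. No weight is placed on the gap between the 2 medians. A match is a description of the sequence only.

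Levels are given as a probe's processed signal divided by the 75th percentile of its own array, so that a value of 1 is the signal of a probe at that percentile. A gene is represented by its brightest passing probe, and levels of different genes are not comparable because each probe binds with its own strength. A gene was called when limma's adjusted p, computed over all 30229 genes, was under 0.05. Differences are log2 fold changes of monuron over corn oil, with their standard errors (SE). The RNA came from whole cortex, so more cells of a type and more RNA per cell cannot be told apart.

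In monuron cortex 5 of the 30 tested replication genes were called higher (16.7%) and 0 were called lower, beside 0.949% of all genes called higher and 0.414% called lower. The 5 were Rrm2, E2f1, Mcm6, Mcm3 and Cdc45. At an unadjusted p under 0.05, 14 were higher and 0 lower, beside 10.9% and 6.73% of all genes. The 3 monuron arrays lay above the 3 corn oil arrays for 17 of the 30, beside 15.5% of all genes, and below them for 0, beside 10.3%. The median log2 fold change was 0.38 with a range from -0.09 to 1.69, beside 0.02 over all genes. On the 75th-percentile scale 28 of 30 were above 0, beside 55.3% of all genes, but 16 of these 28 turned below 0 when arrays were scaled on spike-in controls. That scaling moved the median of all genes to -0.48 and that of the replication genes to -0.13.

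A gene seen on every monuron array but not on every corn oil array passed the filter through the monuron group alone, so that its higher level there is partly a matter of selection. This held for 7 of the 30, namely Mcm10, Cdc6, Cdt1, Gins2, Gins3, Pole and Orc6, of which 4 had groups apart and 0 were called. Their median log2 fold change was 0.55, and no weight is placed on it. The other 23 were above background on all 6 arrays, and 5 were called (21.7%), beside 0.835% of the 26952 genes measured that fully. Groups did not overlap, with monuron higher, for 13 of the 23 (56.5%), beside 15% of those genes. The median log2 fold change of the 23 was 0.17. The median over all 30 was 0.21, in place of 0.38, without corn oil replicate 3.

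**Figure D1:**
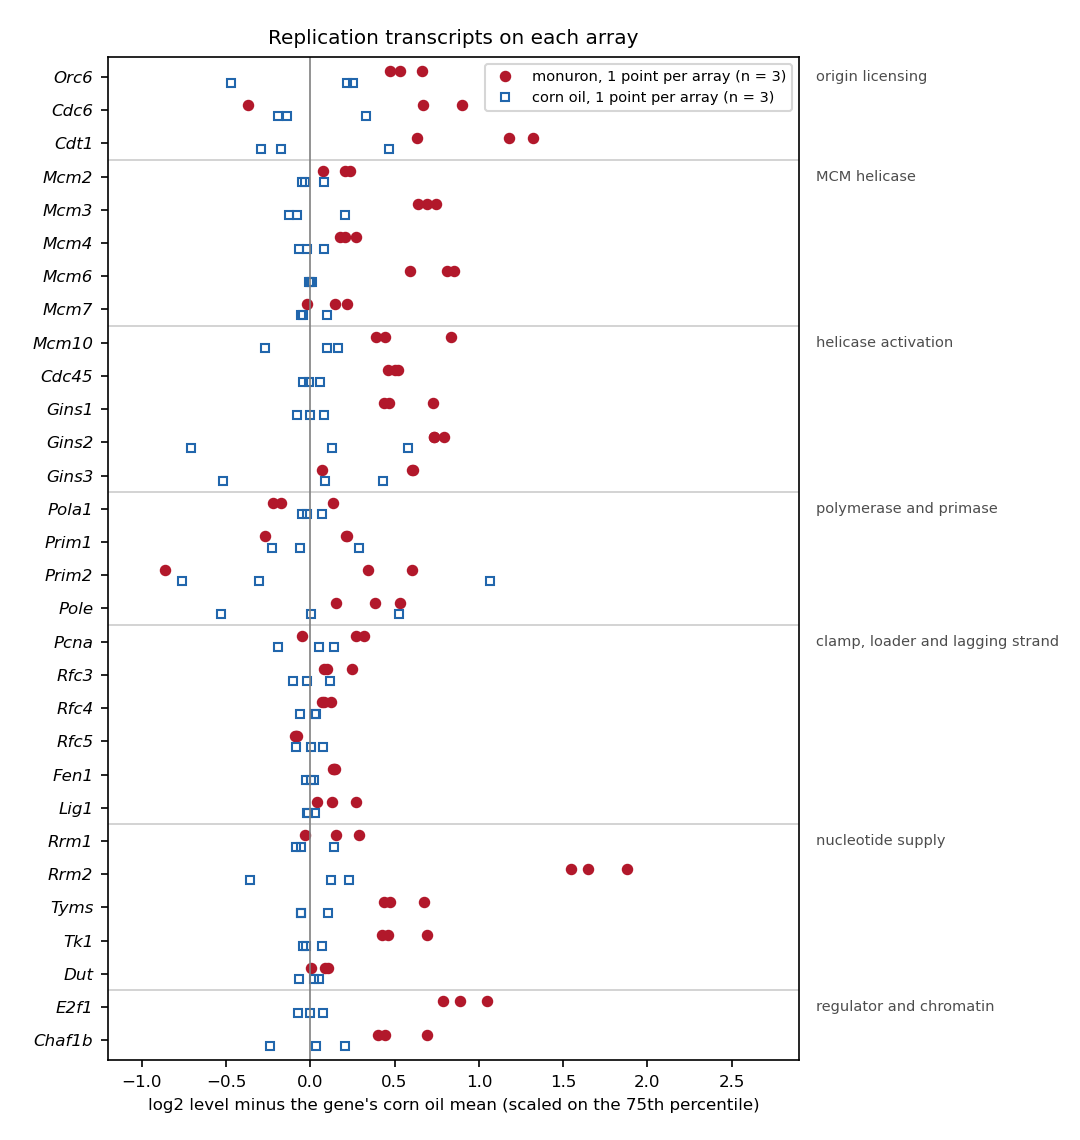
Log2 level of the 30 tested replication genes on each array, minus the gene's corn oil mean, scaled on the array's 75th percentile. Each filled circle is a monuron array and each open square a corn oil array (n = 3 each), with genes grouped by role. The monuron arrays stand above the corn oil arrays for 17 genes, and Rrm2 is farthest to the right. With spike-in scaling the log2 fold changes of 16 of these genes turn from above to below 0.

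The origin licensing genes were dim. Orc6, a subunit of the origin recognition complex, measured 0.0966, 0.0926 and 0.106 on the monuron arrays, against 0.0778, 0.0482 and 0.0796 on the corn oil arrays. The groups did not overlap, and the log2 fold change of 0.55 ± 0.21 did not pass (adjusted p = 0.255). Cdt1, which brings the MCM ring to the origin, measured 0.0422, 0.0263 and 0.0383 with monuron, against 0.0138, 0.0234 and 0.0150 with corn oil. It was well above background on 3 of 3 monuron arrays and on 0 of 3 corn oil arrays, and it did not pass (adjusted p = 0.138). With a floor under the corn oil values its fold was 1.49, a point value that carries no sampling error. That value sets the mean of the monuron arrays against, on each corn oil array, the higher of the probe's own signal and the dimmest signal that was well above background. Without the floor the 95% interval ran from 1.31-fold to 3.25-fold. Cdc6, the loading ATPase, had overlapping groups, with 0.0586, 0.0285 and 0.0687 in monuron cortex and 0.0322, 0.0335 and 0.0463 in corn oil cortex (adjusted p = 0.604). Its lowest value of the 6 was on a monuron array.

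Orc1, the largest subunit of the origin complex, was above background on 2 of 3 monuron and 0 of 3 corn oil arrays and was not tested. It measured 0.0219, 0.0184 and 0.0221 with monuron, against 0.0109, 0.00813 and 0.00912 with corn oil. Pole2, a subunit of DNA polymerase epsilon, was seen on the same numbers of arrays. It measured 0.0289, 0.0163 and 0.0279 with monuron, against 0.0105, 0.00893 and 0.0106 with corn oil. Neither gene's groups overlapped, but no fold is given because every corn oil value was at background.

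Within the MCM helicase, the ring that unwinds DNA at the fork, Mcm6 and Mcm3 rose and the other 3 measured subunits did not pass. Mcm6 measured 0.105, 0.122 and 0.126 on the monuron arrays, against 0.0694, 0.0692 and 0.0702 on the corn oil arrays. The corn oil values were almost identical and every monuron value was higher, for a log2 fold change of 0.75 ± 0.09, which is 1.68-fold (95% interval 1.45 to 1.95, adjusted p = 0.0272). Mcm3 measured 0.871, 0.939 and 0.904 with monuron, against 0.530, 0.645 and 0.512 with corn oil. The groups did not overlap, and the log2 fold change of 0.69 ± 0.11, or 1.62-fold (95% interval 1.35 to 1.94), passed narrowly (adjusted p = 0.0495).

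Mcm4 measured 0.708, 0.739 and 0.692 with monuron, against 0.587, 0.649 and 0.606 with corn oil. Its groups did not overlap, and its log2 fold change of 0.22 ± 0.07 did not pass (adjusted p = 0.206). Mcm2 measured 0.630, 0.564 and 0.618 with monuron, against 0.518, 0.566 and 0.524 with corn oil, and its groups overlapped at 1 array of each. Its 95% interval ran from 0.989-fold to 1.28-fold (adjusted p = 0.319). Mcm7 measured 2.71, 3.20 and 3.04 with monuron, against 2.64, 2.67 and 2.95 with corn oil, so that its groups overlapped, and its interval ran from 0.927-fold to 1.26-fold (adjusted p = 0.562).

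The unequal response of the subunits can be followed within each array, where no scaling between arrays enters. The mean log2 level of Mcm3 and Mcm6 minus that of Mcm2, Mcm4 and Mcm7 was -1.82, -1.70 and -1.70 on the monuron arrays, against -2.28, -2.23 and -2.37 on the corn oil arrays. The difference was nearer 0 on every monuron array than on any corn oil array. This split was chosen after the values were seen, so no test is given.

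Among the factors that activate the helicase, Cdc45 rose and the other 4 did not pass. Cdc45, which joins the MCM ring in the moving helicase, measured 0.743, 0.714 and 0.735 on the monuron arrays, against 0.516, 0.539 and 0.503 on the corn oil arrays. All 3 monuron values were higher and both groups were tight. The log2 fold change was 0.49 ± 0.06, or 1.41-fold (95% interval 1.27 to 1.57, adjusted p = 0.0325), but spike-in scaling took it to -0.01.

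Gins1, a subunit of the 4-part GINS complex that joins Cdc45 in the helicase, measured 0.198, 0.202 and 0.242 with monuron, against 0.138, 0.155 and 0.146 with corn oil. The groups did not overlap, and the log2 fold change was 0.54 ± 0.10 (adjusted p = 0.0817). Its partner Gins2 measured 0.0243, 0.0233 and 0.0234 with monuron, against 0.0209, 0.00859 and 0.0153 with corn oil, and was above background on 1 of 3 corn oil arrays (adjusted p = 0.297). Gins3, another partner, had overlapping groups, with a log2 fold change of 0.43 ± 0.28 (adjusted p = 0.479). Mcm10, which helps to activate the helicase and binds polymerase alpha, measured 0.0472, 0.0641 and 0.0489 in monuron cortex and 0.0386, 0.0299 and 0.0404 in corn oil cortex. Its groups did not overlap, but it did not pass (0.56 ± 0.17, adjusted p = 0.190).

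**Figure D2:**
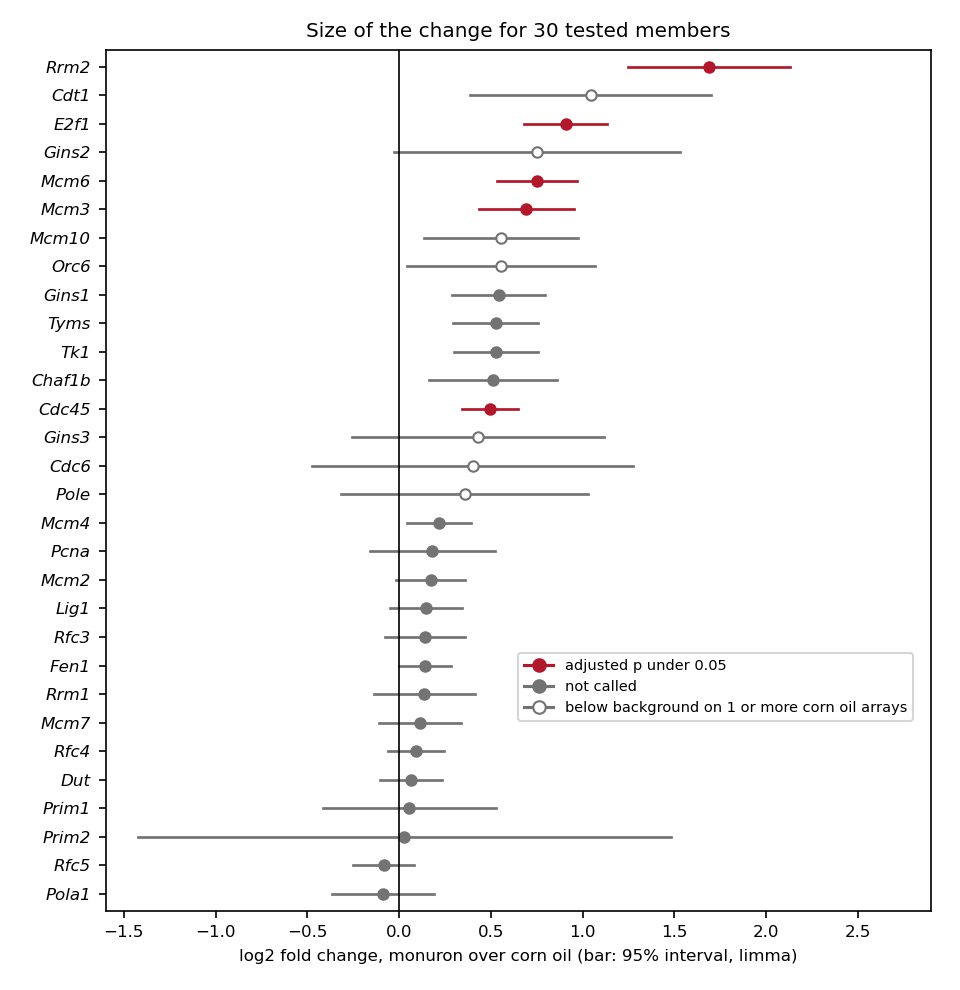
Log2 fold change of monuron over corn oil for the 30 tested replication genes, with 95% intervals from limma (n = 3 arrays per group, scaled on the 75th percentile). Red marks the 5 called genes and open circles the 7 genes below background on 1 or more corn oil arrays. Rrm2 stands at 1.69, and Rfc5 and Pola1 lie below 0; spike-in scaling turns 16 further genes, Cdc45 among them, from above to below 0.

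None of the 4 tested polymerase and primase genes passed, at a median log2 fold change of 0.04, and the smallest unadjusted p among them was 0.240. Pola1, the catalytic subunit of the polymerase that starts each new strand, measured 0.110, 0.137 and 0.107 with monuron, against 0.123, 0.120 and 0.130 with corn oil. Its groups overlapped, with an interval from 0.777-fold to 1.14-fold (adjusted p = 0.729). The primase subunits Prim1 and Prim2, which lay down RNA primers, had log2 fold changes of 0.05 ± 0.19 and 0.03 ± 0.59. Prim2 had the largest SE of the 30 genes. It measured 1.32, 1.58 and 0.575 on the monuron arrays, against 0.615, 2.18 and 0.842 on the corn oil arrays, so that each group held both high and low values. Its interval, from 0.372-fold to 2.80-fold, leaves large changes in either direction undetectable with 3 arrays per group. Pole, the catalytic subunit of the leading-strand polymerase, was above background on 1 of 3 corn oil arrays and did not pass (0.36 ± 0.27, adjusted p = 0.548).

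The 6 genes of the clamp, its loader and the lagging strand differed little between groups, with a median log2 fold change of 0.14 and 0 calls. Pcna, the sliding clamp and a common marker of proliferating cells, measured 3.38, 3.50 and 2.71 with monuron, against 2.46, 3.09 and 2.91 with corn oil. One monuron array lay below 2 of the corn oil arrays, and the interval ran from 0.895-fold to 1.43-fold (adjusted p = 0.549). Fen1, the nuclease that trims Okazaki fragments, had close values within each group, with 3.98, 3.96 and 3.997 on monuron arrays and 3.62, 3.55 and 3.66 on corn oil arrays. Its groups were apart by a narrow margin, at a log2 fold change of 0.14 ± 0.06 (adjusted p = 0.282).

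Lig1, the ligase that seals the fragments, measured 3.75, 3.39 and 3.19 with monuron, against 3.17, 3.08 and 3.06 with corn oil. Its groups did not overlap and it did not pass (0.15 ± 0.08, adjusted p = 0.406). The clamp loader subunits Rfc3, Rfc4 and Rfc5 had log2 fold changes of 0.14 ± 0.09, 0.09 ± 0.06 and -0.08 ± 0.07, with adjusted p-values from 0.457 to 0.568. For all 3 the 95% interval stayed between 0.841-fold and 1.28-fold.

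Nucleotide supply held the largest change among the replication genes. Rrm2, the small subunit of ribonucleotide reductase and the one whose level follows the cell cycle, measured 5.13, 6.45 and 5.50 on the monuron arrays, against 2.06, 1.92 and 1.37 on the corn oil arrays. The lowest monuron value was above the highest corn oil value by a wide gap. Means were 5.69 ± 0.684 in monuron cortex and 1.78 ± 0.364 in corn oil cortex (SD, n = 3 each). The log2 fold change was 1.69 ± 0.18, or 3.22-fold (95% interval 2.37 to 4.38, adjusted p = 0.0214).

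Rrm1, the large subunit of the same enzyme, measured 0.460, 0.405 and 0.505 with monuron, against 0.456, 0.390 and 0.399 with corn oil. The groups overlapped, and the interval ran from 0.909-fold to 1.33-fold (adjusted p = 0.571), below the whole interval of Rrm2. On each array the log2 level of Rrm2 minus that of Rrm1 was 3.48, 3.99 and 3.44 with monuron, against 2.18, 2.30 and 1.78 with corn oil. The gap between the subunits' signals was wider on all 3 monuron arrays, a difference that holds under any scaling of whole arrays and was looked at after the values were seen.

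Tk1, the thymidine kinase of the salvage route, measured 1.74, 1.70 and 2.04 with monuron, against 1.22, 1.24 and 1.33 with corn oil. Tyms, which makes thymidylate afresh, measured 1.10, 0.955 and 0.930 with monuron, against 0.741, 0.663 and 0.662 with corn oil. Both had groups apart and a log2 fold change of 0.53 ± 0.09, and both missed the threshold, Tk1 at an adjusted p of 0.0700 and Tyms at 0.0715. Dut, which breaks down dUTP so that uracil stays out of DNA, measured 7.50, 8.05 and 7.94 with monuron, against 7.74, 7.59 and 7.13 with corn oil. Its groups overlapped, with an interval from 0.931-fold to 1.18-fold (adjusted p = 0.665).

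E2f1, the transcription factor that activates many genes of S phase, rose. It measured 0.522, 0.560 and 0.628 on the monuron arrays, against 0.302, 0.319 and 0.289 on the corn oil arrays, and the groups did not overlap. The log2 fold change was 0.91 ± 0.09, or 1.88-fold (95% interval 1.60 to 2.19, adjusted p = 0.0191). Chaf1b, a subunit of the chaperone that places histones on new DNA, measured 0.375, 0.364 and 0.445 with monuron, against 0.282, 0.317 and 0.233 with corn oil. Its groups were apart, and it did not pass (0.51 ± 0.14, adjusted p = 0.160).

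The 5 calls rest on all 6 arrays. When any single array was left out, E2f1, Mcm6, Mcm3 and Cdc45 lost their calls, and Rrm2 kept its call only without corn oil replicate 3 (adjusted p = 0.0332, and up to 0.0977 otherwise). The sizes moved less. Leaving out 1 array at a time gave 2.85-fold to 3.49-fold for Rrm2, 1.79-fold to 1.96-fold for E2f1, 1.63-fold to 1.78-fold for Mcm6, 1.55-fold to 1.74-fold for Mcm3 and 1.39-fold to 1.44-fold for Cdc45. The lowest adjusted p without an array was 0.0593 for E2f1, 0.0525 for Mcm6, 0.0501 for Mcm3 and 0.0954 for Cdc45.

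Several genes had more than 1 probe, which gives a repeat of the same RNA by other sequences. All 4 passing probes of Rrm2 had log2 fold changes between 1.48 and 1.97, and 3 of them were called when every probe was tested on its own. The 4 probes of Mcm3 lay between 0.69 and 0.97 with 2 called, and the brightest, used above, had an adjusted p of 0.0516 in that test. The 3 passing probes of E2f1 lay between 0.91 and 1.38 with 2 called. Apart from the brightest, the probes of Rrm2 were above background on 1, 2 and 1 of 3 corn oil arrays. They passed the filter through the monuron group alone, so that their higher level there is partly a matter of selection. The same held for the Mcm3 probe at 0.97 and an E2f1 probe at 1.27, each above background on 1 of 3 corn oil arrays, and for the Mcm4 probe at 0.60. No weight is placed on these probes as a repeat. Mcm6 and Cdc45 had 1 probe each and no such repeat. The log2 fold changes spanned 0.49 among the probes of Rrm2 and 0.47 among those of E2f1, the widest spans of any replication gene. The probes of Mcm4 lay between 0.22 and 0.60, while those of Mcm2 lay between -0.02 and 0.17 and those of Rrm1 between 0.14 and 0.35.

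**Figure D3:**
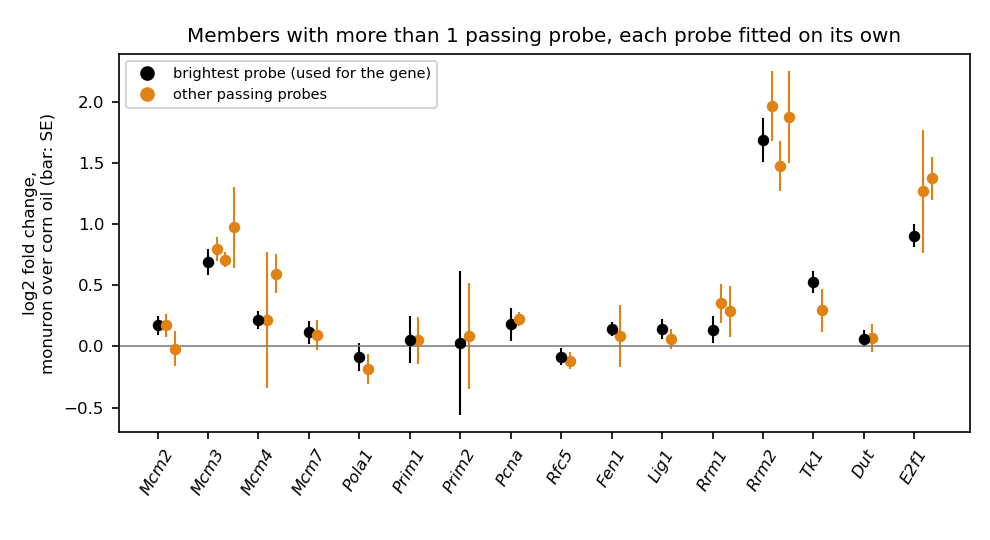
Log2 fold change of monuron over corn oil for each passing probe of the replication genes with more than 1 such probe, fitted on its own; bars are SE (n = 3 arrays per group, scaled on the 75th percentile). Black marks the brightest probe, used for the gene, and orange the others. All probes of Rrm2, Mcm3 and E2f1 stand well above 0, while most other probes lie near it, and with spike-in scaling 16 of the replication genes turn below 0. Of the Rrm2 probes only the brightest was above background on every corn oil array. The Mcm3 probe at 0.97 and the E2f1 probe at 1.27 were each above background on 1 of 3 corn oil arrays.

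Over the 23 genes seen on all 6 arrays, the median of each array's log2 level minus the gene's corn oil mean was 0.27, 0.27 and 0.21 on the monuron arrays, against -0.01, 0.03 and -0.02 on the corn oil arrays. The 3 monuron arrays lay above the 3 corn oil arrays. These values are on the 75th-percentile scale.

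Genes of the same pathway outside the 35 were read from the same fit. Of 38 tested further replication genes 1 was called higher and 0 lower, at a median log2 fold change of 0.19. The called gene was Timeless, part of the complex that protects the fork, at 0.60 ± 0.09 (adjusted p = 0.0435). Gins4, the remaining GINS subunit, was at 0.38 ± 0.09 (adjusted p = 0.113), and Pold4, a small subunit of polymerase delta, at -0.31 ± 0.07 (adjusted p = 0.123). Gmnn encodes geminin, which binds Cdt1 and blocks a second round of licensing, and was at 0.49 ± 0.13 (adjusted p = 0.147).

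Of 18 further nucleotide supply genes 1 was called higher and 0 lower, at a median of 0.10. It was Dctpp1, which hydrolyses dCTP and its modified forms, at 0.75 ± 0.06 or 1.68-fold (adjusted p = 0.0108). Ctps1, which makes CTP, was at 0.52 ± 0.14 (adjusted p = 0.143). Nme1, a nucleoside diphosphate kinase, was at 0.27 ± 0.08 (adjusted p = 0.188), and Paics, of purine synthesis, at 0.28 ± 0.10 (adjusted p = 0.228).

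None of the 8 tested relatives of E2f1 in the E2F and RB family passed, at a median of 0.16. Among them E2f3, another activator, was at 0.27 ± 0.07 (adjusted p = 0.141) and E2f4, mainly a repressor, at -0.31 ± 0.09 (adjusted p = 0.182). Rb1, which restrains E2F, was at 0.17 ± 0.06 (adjusted p = 0.248), and Tfdp2, a partner of E2F, at 0.21 ± 0.10 (adjusted p = 0.367).

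Of 20 genes of G1/S control 1 was called higher and 0 lower, at a median of 0.21. The called gene was Ccna2, the cyclin of S phase and G2, at 1.56 ± 0.11 or 2.94-fold (adjusted p = 0.00798). Ccne1, the cyclin that starts S phase, was at 1.22 ± 0.21 (adjusted p = 0.064), Cks1b, a small partner of the cyclin-dependent kinases, at 0.43 ± 0.08 (adjusted p = 0.0745) and Myc at 0.98 ± 0.19 (adjusted p = 0.0857).

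Mitosis genes are given for scale. Of 19 tested, 13 were called higher and 0 lower, at a median log2 fold change of 1.33, against 0.38 for the 30 replication genes and 0.17 for the 23 of them seen on all 6 arrays. Without corn oil replicate 3 the median of the 30 was 0.21. The mitosis list was not limited to genes seen on all 6 arrays, and its median gene was above background on 2 of 3 corn oil arrays. Its median is therefore to be set beside 0.38 and not beside 0.17. The difference between the 2 lists was not tested. Ccnb2, the B-type cyclin with the smallest p, was at 1.77 ± 0.08, close in size to Rrm2. Prc1, Plk1 and Kif20a, which act in spindle assembly and cell separation, were at 1.44 ± 0.09, 1.43 ± 0.09 and 1.58 ± 0.10.

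**Figure D4:**
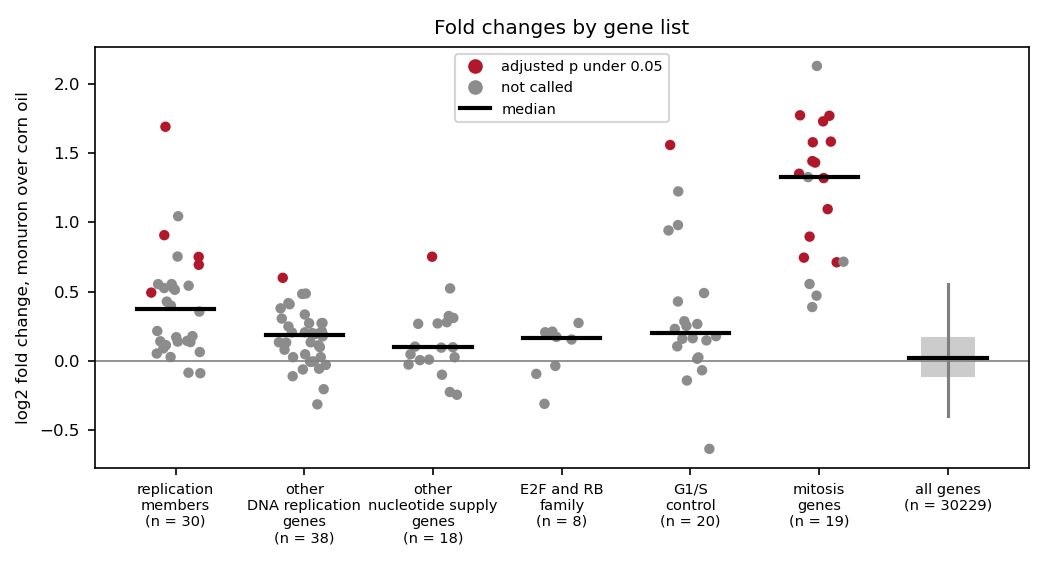
Log2 fold change of monuron over corn oil for each tested gene of the lists, with the replication genes beside the related lists and all genes. Points are genes, red where called, and short bars are list medians (0.38 for the replication genes, 1.33 for the mitosis genes). The box for all genes spans the middle 50% and its line the middle 90%; values are scaled on the 75th percentile, and spike-in scaling lowers all of them together, turning the replication genes' median to -0.13.

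The 75th percentiles of the arrays ran from 825 to 922 in signal units, and correlations between arrays from 0.987 to 0.994. Probes well above background were 70.4%, 68.7% and 69.4% on the monuron arrays, against 70.1%, 60.9% and 65.9% on the corn oil arrays. The part of this difference in the replication genes seen on every monuron array but not on every corn oil array was not tested. Of the kidney tubule markers, which define the labelled tissue, 10 of 10 were above background on all 6 arrays and 0 were called. Their summed level ran from 1323 to 1396 on the monuron arrays, against 1406 to 1552 on the corn oil arrays. Of the 10 tubule markers 3 had a log2 fold change above 0 and 7 below, at a median of -0.08. Groups were apart for 3 of them, all lower with monuron, beside 10.3% of all genes. Among these were Cubn and Lrp2, receptors of proximal tubule uptake, at 0.622-fold (adjusted p = 0.0669) and 0.699-fold (adjusted p = 0.076). Podocyte markers were above background in 5 of 5, with 0 called and summed levels from 29.83 to 30.64 with monuron, against 31.87 to 38.79 with corn oil. Every monuron array was lower than every corn oil array in both sums, which are weighted to the brightest probes. The single markers did not all go that way. Of the 5 podocyte markers 4 were below 0 and 1 was above, at 0.59 with groups apart, and the median was -0.19. Markers of red cell precursors, which also divide, were likewise higher in monuron cortex. Of 12 such markers 10 were tested, 5 were called higher and 0 lower, at a median log2 fold change of 0.98. Their summed level ran from 1524 to 1638 on the monuron arrays, against 650.3 to 893.8 on the corn oil arrays. Of the tested markers 9 had a log2 fold change above 0 and 1 was below, at -0.25. Array ranks within the groups were read by median log2 level minus the corn oil mean. Corn oil replicate 3 was highest of its group for these markers (0.26) and lowest for the 30 replication genes (-0.02). Monuron replicate 2 was lowest of its group for these markers (0.94) and highest for the 30 replication genes (0.39). Over the 23 replication genes seen on all 6 arrays, monuron replicate 2 was not highest, with replicates 1 and 2 both at 0.27. The replication medians differed little within a group, and no weight is placed on these ranks. Hepatocyte markers, of which 12 were tested and 0 called, had a median log2 fold change of 0.81 and stood highest on 1 array of each group. Their median log2 level minus the corn oil mean was 1.70, 0.60 and 0.36 on monuron replicates 1, 2 and 3, against -0.48, -0.53 and 0.91 on corn oil replicates 1, 2 and 3. Without monuron replicate 1 and corn oil replicate 3 together, 0 replication genes were called by limma and 10 had an unadjusted p under 0.05. The part of these tubule, podocyte, red cell and hepatocyte transcripts in the levels of the replication genes was not tested. Of the T cell and macrophage markers, which would mark invading cells, 5 and 6 were tested and 0 were called. Summed levels of T cell markers ran from 1.006 to 1.22 with monuron, against 1.376 to 1.579 with corn oil. Those of macrophage markers ran from 64.25 to 84.94 with monuron, against 69.48 to 115.8 with corn oil.

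The calls also depended on how the arrays were scaled. With quantile normalization, with the authors' deposited table and with median centring, 4 replication genes were called higher, Mcm3 being lost each time. Beside them 0.797%, 0.913% and 0.787% of all genes were called higher, in that order. With signals left unscaled 7 were called higher, Gins1 and Tk1 joining the 5, beside 1.21% of all genes. With spike-in scaling Rrm2, E2f1 and Mcm6 stayed called higher, beside 1% of all genes, and 11 replication genes were called lower, beside 68.3% of all genes. Relative to the median of all genes, the replication genes' median was 0.35 under spike-in scaling and under the reported settings alike. Scaling of whole arrays shifts all genes together and cannot change this value. It was 0.17 with normexp and quantile normalization, 0.185 with a floor on low values and 0.16 with detection on all 6 arrays.

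**Figure D5:**
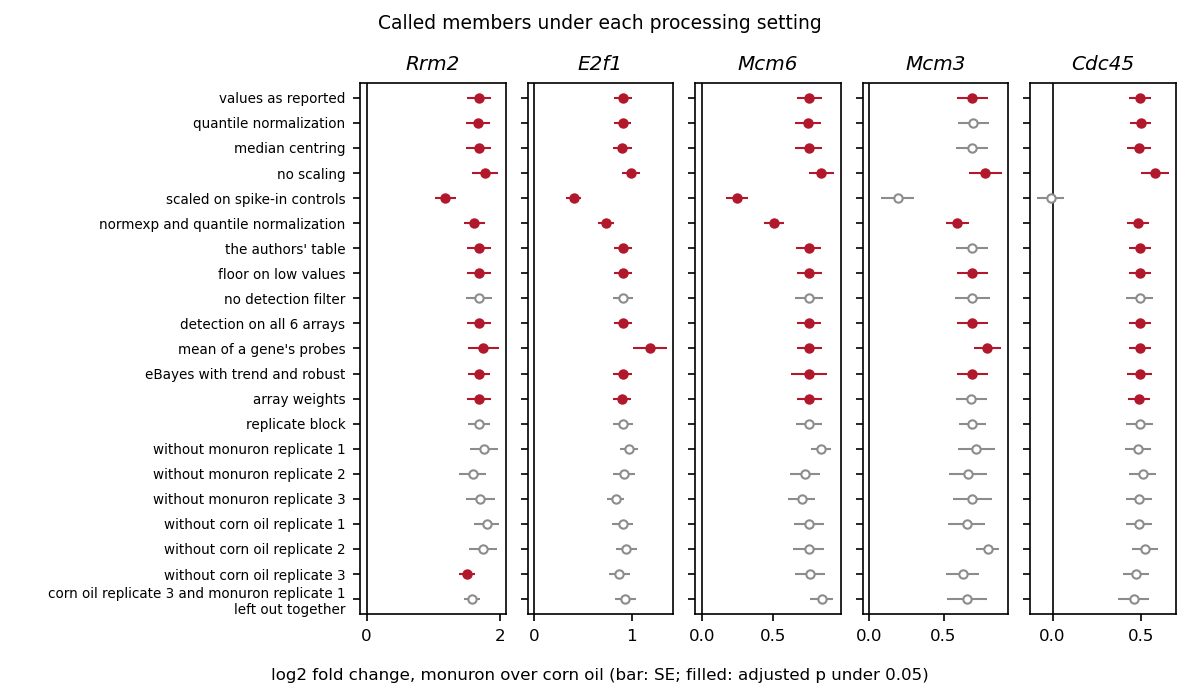
Log2 fold change of monuron over corn oil for the 5 called replication genes under the reported settings and 20 alternatives, 1 panel per gene; bars are SE, and filled red points have an adjusted p under 0.05. With spike-in scaling all 5 genes are at their lowest and Cdc45 turns to -0.01, E2f1 is highest with the mean of its probes, and Mcm6 is also lower with normexp. With 1 array left out the points keep their place, and only Rrm2 without corn oil replicate 3 stays filled.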

How the data were processed

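The values were measured on 1-colour (Cy3) arrays of renal cortex RNA, 6 arrays in 2 groups. The submitters' processing notes name Agilent Feature Extraction 10.7 as the software behind the scanner output. The deposited scanner files hold intensity per spot, with background-corrected processed signal, per the file headers. A deposited value table holds a ratio: on each array it is a fixed multiple of the processed signal (to within 0.0497% for values of at least 0.1), and its column medians were 0.111, 0.111 and 0.110 for monuron and 0.108, 0.111 and 0.112 for corn oil. It served as an alternative, and its constant is not explained in the sources used here.

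The 1439 control spots were left out, and 28206 of 61537 probes (45.8%) were named through accessions in RefSeq's gene table. Log2 values were computed from the deposited intensity and scaled on each array's 75th percentile. Probes had to be flagged as well above background in every array of either group, which 41125 were, and the brightest probe stood for a gene. limma 3.58.1 in R 4.3.3 (lmFit, eBayes, two-sided, Benjamini-Hochberg over 30229 genes) compared the groups; its code was tested on simulated data. Precision is limited by the number of arrays.

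All 35 replication genes are named, and of each further list at most the 4 genes with the smallest p. Replication genes and lists were chosen with earlier results of these data known. Alternatives covered scaling, background, filters, the choice of probe, the variance model, a replicate block and left-out arrays. The scanner files used here hold median rather than mean spot signals, so normexp used those. Probe and protein sequences were not used here.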

Additional observations from a re-analysis of the deposited data

How the results depend on the processing

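Rrm2 was called under 12 of 20 alternatives, E2f1 and Mcm6 under 11, Cdc45 under 10 and Mcm3 under 6. Adjusted p-values ran from 0.00318 to 0.139 for Rrm2, 0.00613 to 0.171 for E2f1, 0.0164 to 0.156 for Mcm6, 0.0172 to 0.911 for Cdc45 and 0.0177 to 0.244 for Mcm3. Without a detection filter, 0.147% of genes were called higher and 0.0418% lower, with 0 replication genes by limma (15 at an unadjusted p under 0.05) and a median of 0.4144. Leaving out 1 array at a time gave 0.0821% to 0.366% of genes higher and 0.0164% to 0.0891% lower, 0 to 1 replication genes higher (Pole2 without monuron replicate 2, Rrm2 without corn oil replicate 3) and medians from 0.2066 to 0.3798. Pole2 was above background on 0 of 3 corn oil arrays. It passed the filter only with its dimmest monuron array, replicate 2, left out, so no weight is placed on its call. Leaving out corn oil replicate 3 and monuron replicate 1, the arrays highest in hepatocyte markers, together gave 0 genes higher and 0 lower by limma (4190 at an unadjusted p under 0.05), 0 replication genes (10 unadjusted) and a median of 0.2227, with Prim1 at -0.056 and Prim2 at -0.28. Deviations of same-numbered arrays had correlations of -0.0801, 0.106 and -0.165, and those of differently numbered arrays ran from -0.135 to 0.224. With 3 arrays per group this cannot settle whether the numbers pair the arrays. With the replicate block 0 genes were called higher and 0 lower (4557 at an unadjusted p under 0.05), and 0 replication genes (13 unadjusted). The trend and robust variance model called 1.43% of genes higher and 0.913% lower, and added Tk1 and Tyms; normexp with quantile normalization called 1.49% and 1.05%, with a replication median of 0.1782. Without scaling 0.202% of genes were lower and the median was 0.4647. Medians were 0.3399 with quantile normalization, 0.2079 with a floor, 0.1722 with detection on all 6 arrays and 0.3451 with array weights. Spike-in scaling, on 7 probes, called 1% of genes higher and 68.3% lower, with 3 replication genes higher, 11 lower and a median of -0.1251. It gave 25 of the 37 reversals, with log2 fold changes of -0.33 for Mcm2, -0.29 for Mcm4, -0.39 for Mcm7, -0.32 for Pcna, -0.10 for Cdc6, -0.010 for Cdc45, -0.075 for Gins3, -0.37 for Rrm1, -0.45 for Prim1, -0.47 for Prim2, -0.36 for Rfc3, -0.41 for Rfc4, -0.15 for Pole, -0.36 for Lig1, -0.36 for Fen1 and -0.44 for Dut. Outside the 35 genes it gave -0.074 for Cks1b, -0.23 for Nme1, -0.22 for Paics, -0.12 for Gins4, -0.017 for Gmnn, -0.23 for E2f3, -0.33 for Rb1 and -0.30 for Tfdp2. Other reversals were Rfc5 without scaling (0.0024), Prim2 (-0.034) and Dut (-0.024) with normexp, and, with 1 array left out, Prim1 (-0.060 to 0.22) and Prim2 (-0.35 to 0.56). The cause of these changes was not tested. A slide block could not be run, as each slide held 1 group. Dim probes near background limit Cdt1, Gins2, Pole, Orc1 and Pole2.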
